A study of Arabidopsis thaliana with 24 samples.

Results

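The 9 genes described here encode part of the machinery that starts translation in Arabidopsis thaliana, together with the kinase GCN2. They were taken by gene identifier from a count table of 32833 genes, and all 9 were found. They are the initiation scaffolds EIF4G (AT3G60240), EIFISO4G1 (AT5G57870) and EIFISO4G2 (AT2G24050), the RNA helicases EIF4A1 (AT3G13920) and EIF4A2 (AT1G54270), the poly(A)-binding proteins PAB2 (AT4G34110), PAB4 (AT2G23350) and PAB8 (AT1G49760), and the eIF2 alpha kinase GCN2 (AT3G59410).

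In cap-dependent initiation a scaffold protein of the eIF4G type holds together a cap-binding protein and the helicase eIF4A, and through poly(A)-binding protein it also contacts the tail of the mRNA. Plants have, beside eIF4G, a shorter scaffold called eIFiso4G that works with a cap-binding partner of its own. GCN2 is activated by uncharged tRNA in amino acid shortage and other stresses, and phosphorylates eIF2 alpha, which lowers general translation.

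RNA-seq was done on whole seedlings, 9 days old, of the mutant line exa1-1 (exa1) and of wild-type Col-0 (WT). EXA1 encodes a GYF-domain protein that binds cap-binding initiation factors. In the salt set, exa1 and WT seedlings were held for 60 min with 200 mM NaCl or on MS medium alone. In the heat set, exa1 and WT seedlings were held for 60 min at 39 °C or at 23 °C. All groups grew on MS medium with sucrose, and each of the 8 groups has 3 libraries, described by the submitters as independent biological replicates, 24 in all. The labels name 1 mutant allele and no complemented line.

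Libraries held between 17600922 and 21557382 reads counted to genes. EXA1 itself lay at 1.26 to 3.18 FPKM in exa1 libraries, against 13.0 to 26.5 FPKM in WT libraries, without overlap. All 4 shoot markers and all 5 root markers looked at were above 0 in every library. Libraries of 1 group agreed less closely in the heat set than in the salt set, and 1 fit was made for each set. Reads of the members ranged from 272 for GCN2 in its lowest library to 20082 for PAB2 in its highest. No stretch of 50 bases within an exon of any member was found unchanged elsewhere in the genome. How reads with mismatches were assigned between paralogues was not tested.

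The order of the levels was largely fixed. Levels are given as FPKM, reads per kilobase of exon scaled to the library's total of counted reads, which allows genes to be compared with each other. PAB2 was first and EIF4A1 second in each of the 8 groups, and GCN2 was last in each. PAB2 ran from 176 to 373 FPKM over the libraries, EIF4A1 from 114 to 212 FPKM and GCN2 from 2.67 to 10.9 FPKM. PAB4, EIFISO4G1 and PAB8 held places in the middle, and the libraries of PAB4 and EIFISO4G1 overlapped in 5 of the 8 groups. EIF4A2 moved most in rank among the helicases and poly(A)-binding genes, from the third place in both NaCl groups to the seventh in both 39 °C groups. EIFISO4G2 lay seventh or eighth in 6 groups and took the fifth place in both 39 °C groups, where its libraries overlapped those of EIFISO4G1.

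**Figure D1:**
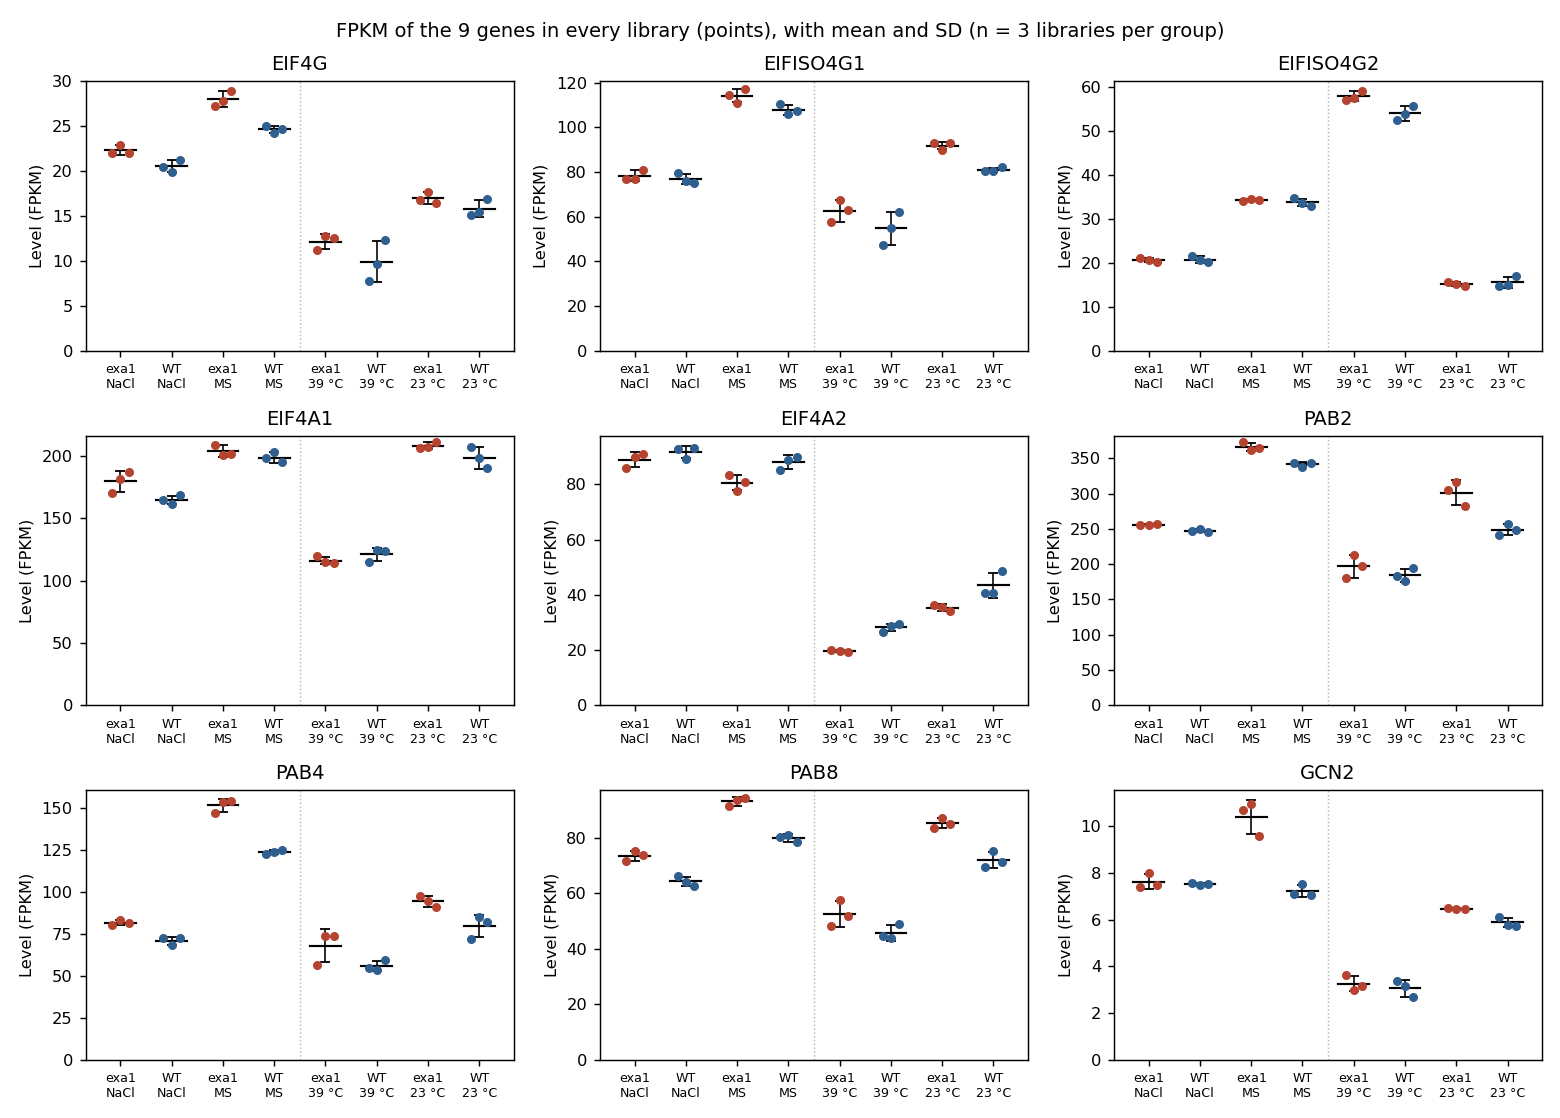
FPKM of each of the 9 genes (vertical axis, starting at 0) in the 8 groups (horizontal axis; exa1 in red, WT in blue), with 1 point per library and the mean and SD of 3 libraries. The 39 °C libraries of EIFISO4G2, at 52.3 to 59.0 FPKM, lie above all others of that gene, and the exa1 libraries of GCN2 on MS, at 9.57 to 10.9 FPKM, above all others of GCN2.

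Differences between groups were tested with edgeR on the counts of all genes, scaled by TMM, a method that takes most genes as unchanged, and a gene was called at a Benjamini-Hochberg adjusted p below 0.05. Between genotypes, 6 of the 9 genes were called on MS, 5 higher and 1 lower in exa1, where 29.3% of all 21759 genes tested were called, 13.3% higher and 16.0% lower. With NaCl 4 of 9 were called, 4 higher and 0 lower in exa1, against 35.8% of all genes, 18.6% higher and 17.2% lower. At 39 °C 2 of 9 were called, 1 in each direction, against 15.5% of all 21196 genes tested, 7.45% higher and 8.03% lower. At 23 °C 3 of 9 were called, 2 higher and 1 lower, against 7.54% of all genes, 3.28% higher and 4.26% lower. The median log2 fold change of the 9 genes, exa1 over WT, was 0.08 on MS, 0.03 with NaCl, 0.09 at 39 °C and 0.14 at 23 °C, while the median over all genes lay between 0.00 and 0.02 in these 4 comparisons. When all 24 libraries shared 1 fit and 1 estimate of the spread, 3 of 9 were called on MS, 1 of 9 with NaCl, and 5 of 9 at each temperature, against 12.4% of all genes on MS, 18.2% with NaCl, 25.6% at 39 °C and 17.7% at 23 °C. The calls lost in that fit were those of EIF4G (adjusted p = 0.204), EIF4A2 (0.0906) and PAB2 (0.411) on MS, and of EIF4G (0.54), EIF4A1 (0.291) and PAB4 (0.0771) with NaCl. Calls were gained for EIF4G (adjusted p = 0.00686), EIFISO4G1 (0.0153) and PAB8 (0.00536) at 39 °C, and for EIFISO4G1 (0.0299) and PAB4 (0.00676) at 23 °C.

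Salt moved nearly all of them. NaCl against MS called 8 of 9 genes in exa1, 1 higher and 7 lower, and 9 of 9 in WT, 2 higher and 7 lower. Such calls were common in this comparison, at 75.0% of all genes in exa1 (37.1% higher and 37.9% lower) and 74.4% in WT (36.9% higher and 37.6% lower). The median log2 fold change of the members was -0.29 in exa1 and -0.16 in WT, against a median of -0.01 over all genes in both. Set against library totals in place of TMM, the median of all genes was -0.16 in both genotypes, and 1 member was called higher and 8 lower in exa1, where 29.3% of all genes were higher and 47.8% lower, and 0 higher and 7 lower in WT, where 28.9% were higher and 47.0% lower. Higher genes made up 49.5% of all calls with TMM and 38.0% with library totals in exa1, and 49.6% and 38.1% in WT. With all 24 libraries in 1 fit, the calls of EIF4G were lost in exa1 (adjusted p = 0.118) and WT (0.517), as were those of EIF4A1 (0.264) and PAB8 (0.0719) in WT.

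At 39 °C against 23 °C, 6 of 9 genes were called in exa1 and 7 of 9 in WT, all of them higher on the TMM scale, where 75.9% of all genes were called in exa1 (36.3% higher and 39.7% lower) and 75.2% in WT (36.6% higher and 38.6% lower). With counts set against the library total instead, 1 of 9 was called higher and 8 of 9 lower in both genotypes, against 13.6% of all genes higher and 71.7% lower in exa1, and 12.2% higher and 72.8% lower in WT. Between the scalings the median log2 fold change of all genes moved as well, being -0.09 in exa1 and -0.06 in WT with TMM, but -0.97 in both when set against library totals. The share of higher genes among all calls was 47.7% with TMM and 16.0% with library totals in exa1, and 48.7% and 14.4% in WT. Of the 9 genes, EIFISO4G2 alone was higher at 39 °C under both scalings.

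Among the scaffolds, EIFISO4G2 gave the largest heat response of all 9 genes. The gene lies on the minus strand at chr2:10225225-10228698 (build TAIR10.1, 8 exons), and EIFISO4G1, its paralogue, on the plus strand at chr5:23439498-23443815 (9 exons). EIFISO4G2 had 57.1, 57.5 and 59.0 FPKM in exa1 at 39 °C, against 15.6, 15.2 and 14.8 FPKM in exa1 at 23 °C. In WT it had 52.3, 53.9 and 55.6 FPKM at 39 °C, against 14.8, 14.9 and 16.9 FPKM at 23 °C. All 6 heated libraries stood far above all 6 at 23 °C, and the libraries of the genotypes lay close together at each temperature.

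The ratio of mean FPKM of EIFISO4G2, 39 °C over 23 °C, was 3.80 in exa1 and 3.47 in WT. The TMM fit gave log2 fold changes of 2.81 ± 0.07 in exa1 (SE, adjusted p = 6.31e-18) and 2.70 ± 0.07 in WT (adjusted p = 1.22e-17), that is 7.02-fold and 6.51-fold. Set against library totals the same counts gave 1.93 in exa1 and 1.80 in WT. The heat response of EIFISO4G2 in exa1 minus that in WT was 0.11 ± 0.10 on the log2 scale, with an adjusted p of 0.621.

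EIFISO4G1 had 57.6, 67.4 and 63.0 FPKM in exa1 at 39 °C, against 93.0, 89.9 and 92.8 FPKM in exa1 at 23 °C. In WT it had 47.4, 54.9 and 62.3 FPKM at 39 °C, against 80.6, 80.6 and 82.1 FPKM at 23 °C. Per counted read EIFISO4G1 was thus lower in every heated library, while on the TMM scale it was higher by 0.33 ± 0.08 in exa1 (adjusted p = 0.00106) and by 0.34 ± 0.08 in WT (adjusted p = 0.000804).

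The ratio of the scaffold genes within a library does not depend on the scaling. EIFISO4G1 over EIFISO4G2 was 1.08 ± 0.08 in exa1 at 39 °C, against 6.05 ± 0.21 in exa1 at 23 °C, and 1.02 ± 0.11 in WT at 39 °C, against 5.24 ± 0.34 in WT at 23 °C (SD, n = 3 each). The libraries of the temperatures did not overlap in either genotype, with an exact two-sided permutation p of 0.10, the smallest that 3 libraries against 3 allow. At 39 °C the genes thus stood at about equal levels. The ratio of exa1 at 23 °C lay above that of WT at 23 °C without overlap (p = 0.10), and that of exa1 at 39 °C overlapped that of WT at 39 °C (exact permutation p = 0.50).

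**Figure D2:**
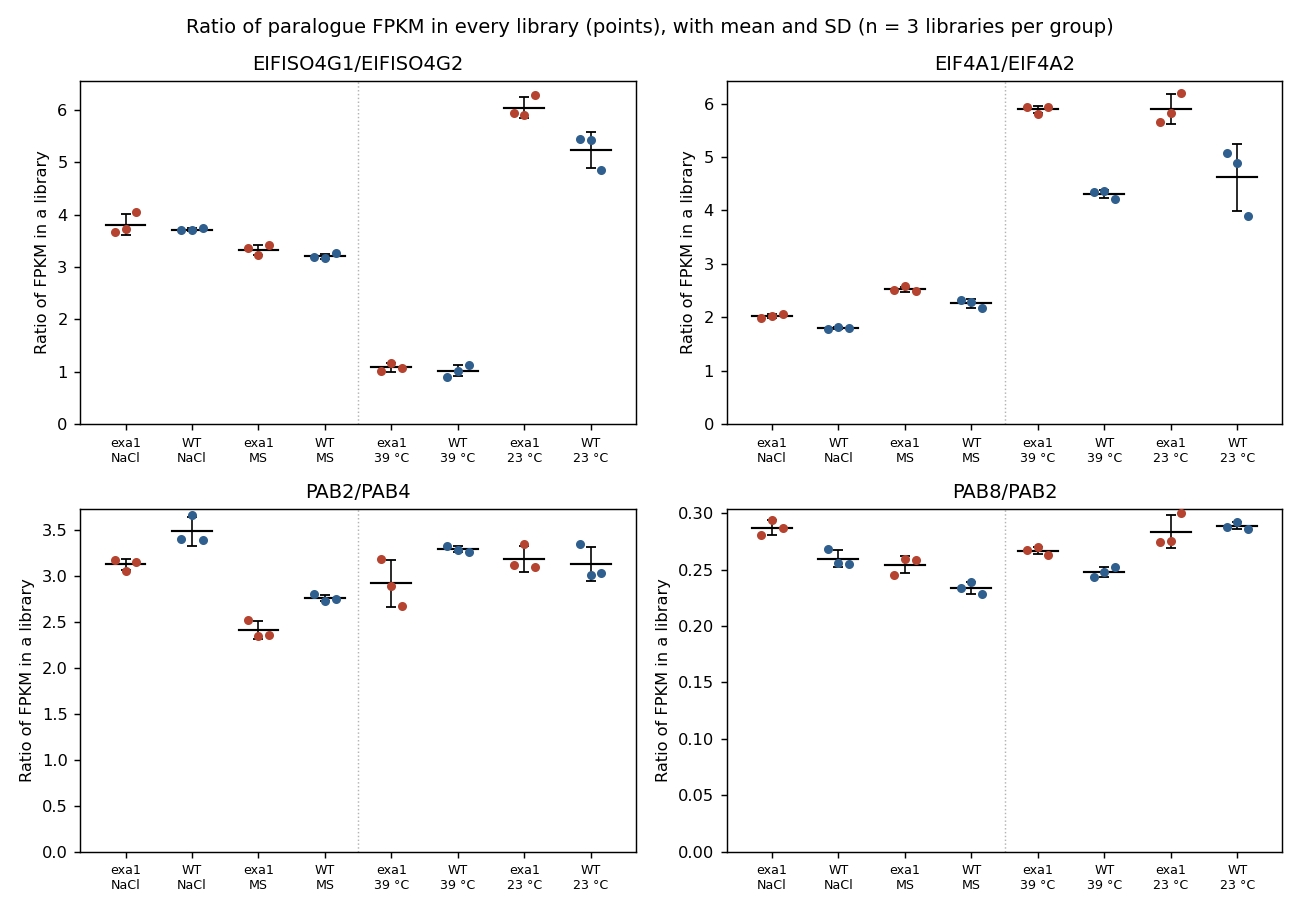
Ratio of the FPKM of paralogous genes within each library (vertical axis, starting at 0) in the 8 groups (horizontal axis; exa1 in red, WT in blue), with the mean and SD of 3 libraries. EIFISO4G1 over EIFISO4G2 lies near 1 in the 39 °C libraries, and EIF4A1 over EIF4A2 is higher in exa1 than in WT in all 4 conditions.

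In salt the eIFiso4G genes fell together. EIFISO4G2 had 21.1, 20.6 and 20.1 FPKM in exa1 with NaCl, against 34.1, 34.4 and 34.3 FPKM in exa1 on MS. In WT it had 21.5, 20.5 and 20.1 FPKM with NaCl, against 34.6, 33.6 and 32.9 FPKM on MS. The NaCl libraries were the lower ones throughout, with log2 fold changes of -0.58 ± 0.04 in exa1 (adjusted p = 3.17e-28) and -0.55 ± 0.04 in WT (adjusted p = 4.00e-26). EIFISO4G1 changed less, by -0.39 ± 0.03 in exa1 and -0.34 ± 0.03 in WT, so that EIFISO4G1 over EIFISO4G2 was 3.81 ± 0.20 in exa1 with NaCl, against 3.33 ± 0.10 on MS, and 3.72 ± 0.03 in WT with NaCl, against 3.20 ± 0.05 on MS. The ratio did not overlap between NaCl and MS in either genotype (exact permutation p = 0.10).

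Neither eIFiso4G gene was called between genotypes in any of the 4 conditions. For EIFISO4G2 the log2 fold change, exa1 over WT, was 0.00 on MS, -0.03 with NaCl, 0.09 at 39 °C and -0.02 at 23 °C, with adjusted p from 0.437 to 0.972. For EIFISO4G1 it was 0.06 ± 0.03 on MS (adjusted p = 0.0723), 0.01 with NaCl, 0.18 ± 0.08 at 39 °C (adjusted p = 0.156), while the 23 °C value was 0.19 ± 0.08 (adjusted p = 0.177). The MS value of EIFISO4G1 passed the threshold without exa1 replicate 2 (adjusted p = 0.0362) or WT replicate 1 (0.0386), and against library totals (0.0087). The 39 °C value was 0.27 and passed without WT replicate 3 (adjusted p = 0.0219), and the 23 °C value passed with the 6 libraries fitted alone (0.0477), beside the gains in the joint fit given above.

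EIF4G, the scaffold of the larger cap-binding complex, lies at chr3:22261648-22268496 on the plus strand with 9 exons. It was the least abundant scaffold in 5 of the 8 groups, and stood between 7.75 and 29.0 FPKM over all libraries. On MS it had 27.2, 27.8 and 29.0 FPKM in exa1, against 25.1, 24.2 and 24.6 FPKM in WT, and the groups did not overlap. The log2 fold change was 0.16 ± 0.03 (adjusted p = 2.32e-05).

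With NaCl EIF4G had 22.0, 23.0 and 22.0 FPKM in exa1, against 20.4, 19.9 and 21.2 FPKM in WT, a log2 fold change of 0.10 ± 0.03 (adjusted p = 0.0139). This call was lost without exa1 replicate 2 (adjusted p = 0.0993), WT replicate 1 (0.081) or WT replicate 2 (0.189). The 39 °C value of EIF4G was 0.28 ± 0.11 (adjusted p = 0.0886), and the 23 °C value was 0.11 ± 0.11 (adjusted p = 0.61). The 39 °C libraries of WT were spread from 7.75 to 12.3 FPKM, and the 39 °C value passed the threshold without WT replicate 3 (adjusted p = 0.00148) or without exa1 replicate 1 (adjusted p = 0.0494).

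Salt lowered EIF4G less than the eIFiso4G genes, by -0.17 ± 0.03 in exa1 (adjusted p = 1.68e-06) and -0.11 ± 0.03 in WT (adjusted p = 0.00228), and the WT call was lost without WT NaCl replicate 2 (adjusted p = 0.0677). The ratio of EIF4G to EIFISO4G1 was 0.285 ± 0.014 in exa1 with NaCl, against 0.245 ± 0.007 on MS, and 0.267 ± 0.013 in WT with NaCl, against 0.228 ± 0.001 on MS, without overlap in either genotype (exact permutation p = 0.10). Between 39 °C and 23 °C this ratio overlapped in both genotypes. The heat response of EIF4G itself was 0.40 ± 0.11 in exa1 (adjusted p = 0.00238) and 0.23 ± 0.11 in WT (adjusted p = 0.0619) on the TMM scale, but -0.48 and -0.68 against library totals. The WT value passed without WT 39 °C replicate 1 (adjusted p = 0.00144) and with all 24 libraries in 1 fit (0.0297).

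**Figure D3:**
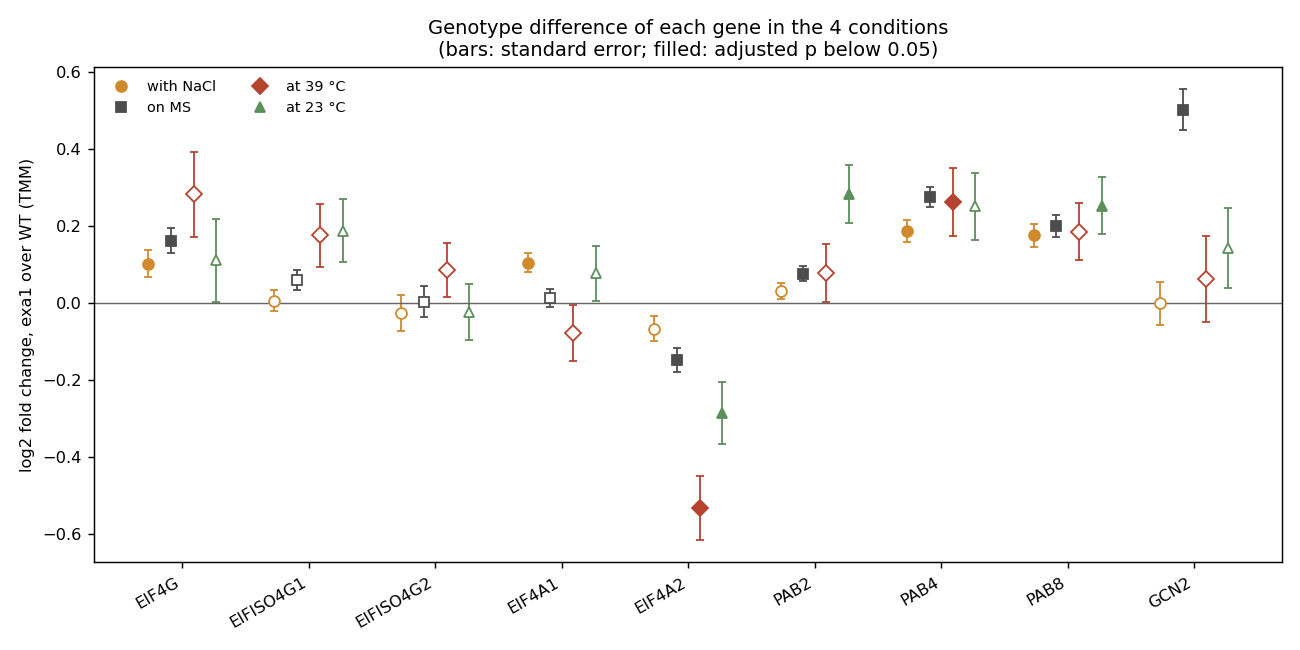
Log2 fold change of exa1 over WT on the TMM scale (vertical axis) for each gene (horizontal axis) in 4 conditions, with the standard error. Filled symbols passed an adjusted p of 0.05. PAB4, PAB8, PAB2, EIF4G and EIFISO4G1 lie above 0 in all 4 conditions, EIFISO4G1 by only 0.01 with NaCl. EIF4A2 lies below 0 in all 4, and GCN2 stands apart on MS at 0.50.

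The eIF4A helicases unwind structure in the leader of the mRNA, and the paralogues differed in both genotype and salt. EIF4A1 lies on the minus strand at chr3:4592248-4595080 (6 exons), and EIF4A2 on the plus strand at chr1:20259547-20262266 (5 exons). EIF4A2 had lower values in exa1. On MS it had 83.2, 77.7 and 81.0 FPKM in exa1, against 85.1, 88.9 and 89.9 FPKM in WT. At 39 °C it had 20.1, 19.8 and 19.2 FPKM in exa1, against 26.5, 28.7 and 29.3 FPKM in WT. At 23 °C it had 36.5, 35.6 and 34.1 FPKM in exa1, against 40.8, 40.6 and 48.7 FPKM in WT. In these 3 conditions every exa1 library was below every WT library.

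The log2 fold changes of EIF4A2, exa1 over WT, were -0.15 ± 0.03 on MS (adjusted p = 5.68e-05), -0.07 ± 0.03 with NaCl (adjusted p = 0.0883), and -0.53 ± 0.08 at 39 °C (adjusted p = 0.000312). The 23 °C value was -0.29 ± 0.08 (adjusted p = 0.0335). The 39 °C call was kept with every single library left out, the adjusted p reaching at most 0.00377. The 23 °C call was lost without any 1 of the 3 exa1 libraries or without WT replicate 3, with adjusted p up to 0.185. With NaCl, EIF4A2 passed without exa1 replicate 3 (adjusted p = 0.0206) or WT replicate 2 (0.0168), with low counts kept in (0.0485) and with the 6 libraries fitted alone (0.0386). The heat response of EIF4A2 in exa1 minus that in WT was -0.25 ± 0.12 on the log2 scale, with an unadjusted p of 0.0465 and an adjusted p of 0.285.

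EIF4A1 differed less between genotypes than its paralogue on MS, at 39 °C and at 23 °C, but not with NaCl. Its log2 fold change was 0.01 ± 0.02 on MS (adjusted p = 0.725), -0.08 ± 0.07 at 39 °C (adjusted p = 0.5), while the 23 °C value was 0.08 ± 0.07 (adjusted p = 0.586). With NaCl EIF4A1 had 170, 182 and 187 FPKM in exa1, against 164, 162 and 168 FPKM in WT. It was higher in exa1 by 0.10 ± 0.02 (adjusted p = 0.000169), a call lost without exa1 replicate 3 (adjusted p = 0.0622). In TMM-scaled CPM these groups overlapped, with exa1 replicate 1 at 458.4 and WT replicate 3 at 458.7.

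Within a library EIF4A1 over EIF4A2 was higher in exa1 than in WT in all 4 conditions without overlap, each with an exact permutation p of 0.10. It was 2.53 ± 0.05 in exa1 on MS, against 2.26 ± 0.08 in WT, and 2.02 ± 0.03 in exa1 with NaCl, against 1.80 ± 0.02 in WT (SD, n = 3 each). At 39 °C it was 5.89 ± 0.07 in exa1, against 4.30 ± 0.08 in WT, and at 23 °C 5.89 ± 0.28 in exa1, against 4.62 ± 0.63 in WT. The unstressed groups of the salt and heat sets thus differed in this ratio, and set and culture condition cannot be told apart. Between 39 °C and 23 °C the libraries overlapped in this ratio in exa1 (exact permutation p = 1.0) and in WT (exact permutation p = 0.40).

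The direction of the helicases in heat depended on the scaling. On the TMM scale EIF4A1 was at 0.04 ± 0.07 in exa1 (adjusted p = 0.614) and 0.20 ± 0.07 in WT (adjusted p = 0.0183), and EIF4A2 at 0.04 ± 0.08 in exa1 (adjusted p = 0.668) and 0.29 ± 0.08 in WT (adjusted p = 0.00349), while against library totals the 4 values lay between -0.85 and -0.62. The WT call of EIF4A1 was lost without WT 23 °C replicate 3 (adjusted p = 0.0841) or WT 39 °C replicate 2 (0.09), without a filter on low counts (0.0742), and with the 6 WT libraries fitted alone (0.0767).

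In salt the helicases differed in direction, in WT on the TMM scale and in exa1 against library totals. EIF4A2 was higher with NaCl than on MS on the TMM scale, by 0.29 ± 0.03 in exa1 (adjusted p = 1.84e-16) and by 0.21 ± 0.03 in WT (adjusted p = 3.86e-10), and against library totals by 0.14 in exa1 (adjusted p = 2.52e-05), the WT value being 0.06 (adjusted p = 0.0637, and 0.123 with limma on FPKM). EIF4A1 was lower with NaCl in WT, by -0.12 ± 0.02 (adjusted p = 4.33e-06), and its value in exa1 was -0.03 ± 0.02 (adjusted p = 0.3), which passed without exa1 NaCl replicate 3 (adjusted p = 0.0496). Against library totals EIF4A1 was lower in both genotypes, by -0.18 in exa1 (adjusted p = 6.48e-12) and by -0.27 in WT (adjusted p = 3.00e-21), and limma on FPKM also called it in exa1 (-0.18, adjusted p = 7.68e-05). EIF4A1 over EIF4A2 was lower with NaCl than on MS without overlap in both genotypes (exact permutation p = 0.10). The salt response of EIF4A1 in exa1 minus that in WT was 0.09 ± 0.03 (adjusted p = 0.0393). That call was lost with DESeq2 (0.123), with limma on FPKM (0.205), with low counts kept in (0.078) and in the joint fit of 24 libraries (0.692), and without any 1 of 8 of the 12 libraries (all but exa1 MS replicate 1, WT MS replicates 1 and 3 and exa1 NaCl replicate 1), with adjusted p up to 0.374.

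The 250 bases upstream of the annotated starts of the helicase genes were read from the RefSeq genome TAIR10.1. They are shown because the ratio of the pair changed in salt, with the letters ACGTCA, read on either strand, in capitals. EIF4A1 is at chr3:4595081-4595330, minus strand, and EIF4A2 at chr1:20259297-20259546, plus strand, each written on the strand of the gene.
EIF4A1: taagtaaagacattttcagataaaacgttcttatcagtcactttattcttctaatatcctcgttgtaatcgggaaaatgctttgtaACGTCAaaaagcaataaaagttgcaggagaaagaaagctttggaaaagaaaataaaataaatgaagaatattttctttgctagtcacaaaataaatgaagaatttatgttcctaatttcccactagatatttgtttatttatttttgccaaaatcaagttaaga
EIF4A2: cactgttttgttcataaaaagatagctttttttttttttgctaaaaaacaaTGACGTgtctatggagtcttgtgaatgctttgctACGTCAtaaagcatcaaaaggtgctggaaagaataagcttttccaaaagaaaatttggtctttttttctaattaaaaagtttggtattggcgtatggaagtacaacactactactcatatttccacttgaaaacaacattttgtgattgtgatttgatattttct
EIF4A1 held the letters 1 time, at positions -164 to -159 counted from its start. EIF4A2 held them at nearly the same distance, at -165 to -160, and again on the other strand, as TGACGT, at -199 to -194. The letters were found in 7.69% of 27443 such windows of protein-coding genes. They were picked after the windows had been read, and the match is a description only.

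**Figure D4:**
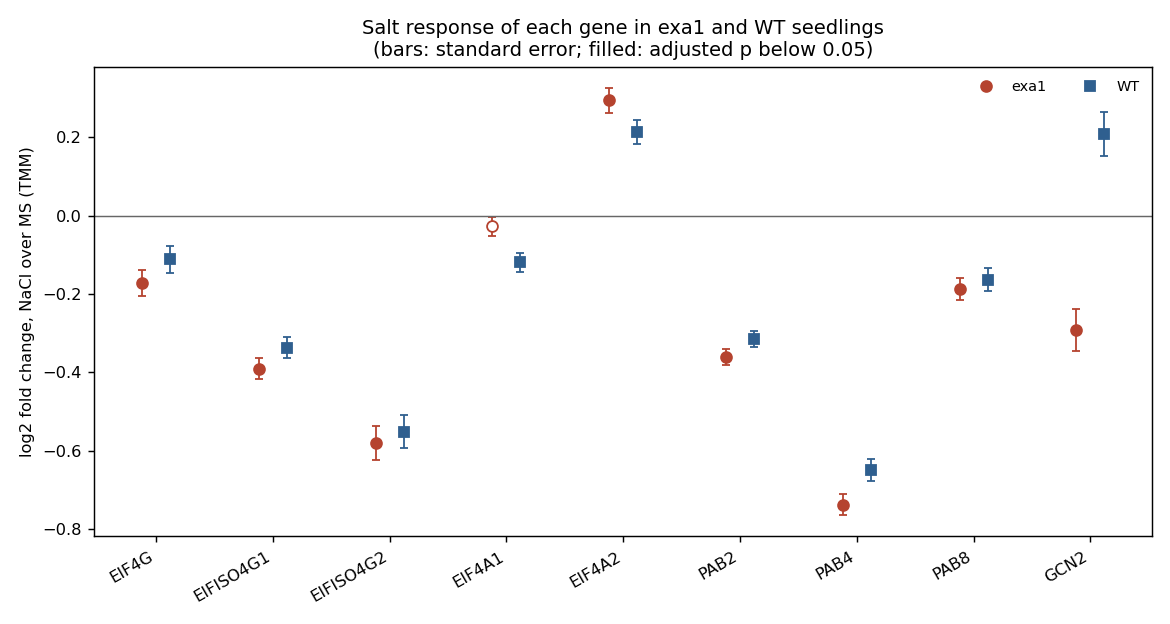
Log2 fold change of NaCl over MS on the TMM scale (vertical axis) for each gene (horizontal axis) in exa1 (red circles) and WT (blue squares), with the standard error; filled symbols passed an adjusted p of 0.05. PAB4 lies lowest in both genotypes, EIF4A2 lies above 0 in both, and GCN2 lies below 0 in exa1 and above 0 in WT.

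Of the poly(A)-binding genes, all 3 were called higher in exa1 on MS, PAB4 and PAB8 with NaCl, PAB4 at 39 °C, and PAB2 and PAB8 at 23 °C. PAB2, PAB4 and PAB8 are the class expressed broadly in the plant. PAB4 (chr2:9942915-9946347, plus strand, 9 exons) had 148, 154 and 155 FPKM in exa1 on MS, against 123, 124 and 125 FPKM in WT. With NaCl it had 80.4, 83.7 and 81.6 FPKM in exa1, against 72.4, 68.2 and 72.4 FPKM in WT. In both conditions all exa1 libraries lay above all WT libraries, with log2 fold changes of 0.27 ± 0.03 on MS (adjusted p = 9.14e-19) and 0.19 ± 0.03 with NaCl (adjusted p = 8.99e-09).

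At 39 °C PAB4 had 56.7, 73.7 and 73.6 FPKM in exa1, against 55.0, 53.5 and 59.5 FPKM in WT, and exa1 replicate 1 lay within the WT range. The value was 0.26 ± 0.09 (adjusted p = 0.0474), and the call was lost without exa1 replicate 2 or 3 or without WT replicate 1 or 2, with adjusted p up to 0.159. With limma on FPKM it was at 0.0834, with the 6 libraries fitted alone at 0.128, and with a replicate block at 0.0502. At 23 °C PAB4 had 97.7, 94.5 and 91.2 FPKM in exa1, against 72.2, 85.3 and 82.0 FPKM in WT, and the value of 0.25 ± 0.09 did not pass (adjusted p = 0.0844) although the groups did not overlap, and passed with the 6 libraries fitted alone (0.0175).

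PAB8 (chr1:18416474-18420111, plus strand, 9 exons) had 91.4, 93.7 and 94.3 FPKM in exa1 on MS, against 80.3, 81.0 and 78.4 FPKM in WT. With NaCl it had 71.6, 75.1 and 73.8 FPKM in exa1, against 66.1, 64.0 and 62.8 FPKM in WT. The groups were apart in both, by 0.20 ± 0.03 on MS (adjusted p = 1.29e-09) and by 0.18 ± 0.03 with NaCl (adjusted p = 2.38e-07). At 39 °C the value was 0.18 ± 0.07 (adjusted p = 0.0947), which passed without exa1 replicate 1 (0.0349) or WT replicate 3 (0.0461) and with DESeq2 (0.0268). At 23 °C it was 0.25 ± 0.07 (adjusted p = 0.0375), a call lost without any 1 of the 6 libraries, with adjusted p up to 0.144, and also with limma on FPKM (0.0591) or library totals (0.0588).

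PAB2 (chr4:16336291-16340314, plus strand, 9 exons), the most abundant of the 9, had 373, 362 and 364 FPKM in exa1 on MS, against 344, 338 and 344 FPKM in WT, apart but by only 0.08 ± 0.02 on the log2 scale (adjusted p = 0.00153). At 23 °C it had 305, 317 and 283 FPKM in exa1, against 241, 257 and 249 FPKM in WT, a log2 fold change of 0.28 ± 0.07 (adjusted p = 0.0242). That call was lost without exa1 replicate 1 or 2 or without any 1 of the WT libraries, with adjusted p up to 0.124. The values with NaCl, 0.03 ± 0.02 (adjusted p = 0.269, but 0.0457 against library totals), and at 39 °C, 0.08 ± 0.08 (adjusted p = 0.523), did not pass.

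Because PAB4 differed more than PAB2 on MS, PAB2 over PAB4 was 2.41 ± 0.10 in exa1, against 2.76 ± 0.04 in WT. With NaCl it was 3.13 ± 0.06 in exa1, against 3.49 ± 0.16 in WT, and at 39 °C 2.92 ± 0.25 in exa1, against 3.30 ± 0.03 in WT. These 3 comparisons had no overlap (exact permutation p = 0.10 each), and the ratio overlapped at 23 °C (p = 0.50). PAB8 over PAB2 was higher in exa1 without overlap in the same 3 conditions, for example 0.254 ± 0.008 in exa1 against 0.234 ± 0.006 in WT on MS. The 5 ratios were compared in 40 ways in all, and the lowest exact p, 0.10, was 0.154 after adjustment over the 40.

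Salt lowered all 3 poly(A)-binding genes in both genotypes. PAB4 gave the largest change of the 9 genes, -0.74 ± 0.03 in exa1 (adjusted p = 2.85e-64) and -0.65 ± 0.03 in WT (adjusted p = 3.52e-55). In mean FPKM it stood at 81.9 in exa1 with NaCl, against 152 in exa1 on MS, and at 71.0 in WT with NaCl, against 124 in WT on MS. PAB2 was at -0.36 ± 0.02 in exa1 and -0.32 ± 0.02 in WT, and PAB8 at -0.19 ± 0.03 in exa1 and -0.16 ± 0.03 in WT, all called. The difference of the responses, exa1 minus WT, did not pass for any of them, the nearest being PAB4 at -0.09 ± 0.04 (adjusted p = 0.0908), which passed without exa1 MS replicate 1, WT MS replicate 3 or WT NaCl replicate 2, with an adjusted p of 0.0109 at the lowest.

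In heat the poly(A)-binding genes were higher on the TMM scale but lower per counted read. On the TMM scale PAB2 was at 0.27 ± 0.08 in exa1 and 0.48 ± 0.08 in WT, PAB4 at 0.41 ± 0.09 in exa1 and 0.40 ± 0.09 in WT, and PAB8 at 0.19 ± 0.07 in exa1 and 0.25 ± 0.07 in WT, all called, and against library totals all 6 values were below 0, from -0.70 to -0.43. The exa1 call of PAB8 was lost without exa1 23 °C replicate 1 or 3 or exa1 39 °C replicate 2, with adjusted p up to 0.131, and with low counts kept in (0.126). Mean FPKM of PAB2 was 197 in exa1 at 39 °C, against 301 at 23 °C, and 185 in WT at 39 °C, against 249 at 23 °C.

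**Figure D5:**
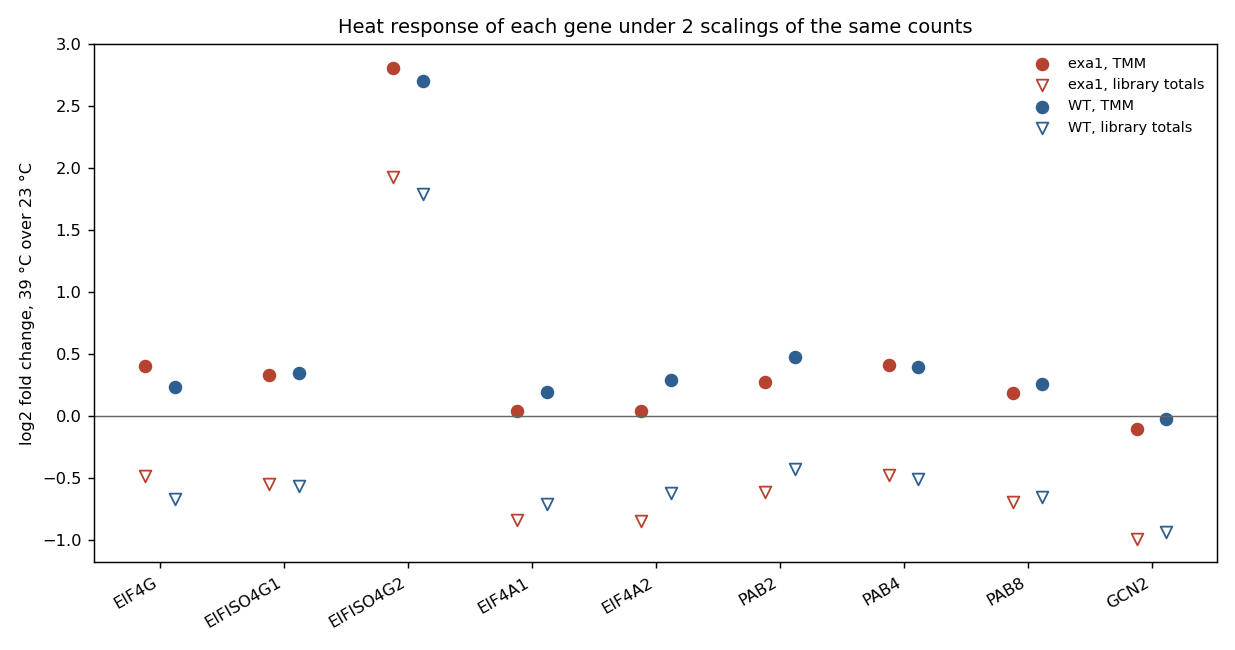
Log2 fold change of 39 °C over 23 °C (vertical axis) for each gene (horizontal axis) in exa1 (red) and WT (blue), with counts scaled by TMM (circles) or set against the library total (triangles). EIFISO4G2 lies above 0 under both, near 2.8 and 1.9 in exa1, while the triangles of the other 8 genes all lie below 0.

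GCN2 (chr3:21948851-21959410, plus strand, 29 exons) was the member whose salt response differed most between genotypes. On MS it had 10.7, 10.9 and 9.57 FPKM in exa1, against 7.11, 7.52 and 7.05 FPKM in WT. With NaCl it had 7.41, 7.98 and 7.47 FPKM in exa1, against 7.58, 7.47 and 7.52 FPKM in WT. The genotypes were thus fully apart on MS and overlapped with NaCl.

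The log2 fold change of GCN2, exa1 over WT, was 0.50 ± 0.05 on MS (adjusted p = 1.44e-15) and 0.00 ± 0.06 with NaCl (adjusted p = 0.998). NaCl against MS gave -0.29 ± 0.05 in exa1 (adjusted p = 3.21e-07) and 0.21 ± 0.06 in WT (adjusted p = 0.000453), and against library totals the WT value was 0.06 (adjusted p = 0.352), with 0.475 by limma on FPKM. The salt response in exa1 minus that in WT was -0.50 ± 0.08 (adjusted p = 2.64e-08), and it stayed past the threshold under each of the 7 other settings and with each of the 12 libraries left out. Of the 9 genes, 2 were called in this test, GCN2 lower and EIF4A1 higher, against 21.2% of all genes, 11.6% higher and 9.61% lower.

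In the heat set GCN2 did not follow the same pattern. At 39 °C it had 3.60, 2.99 and 3.14 FPKM in exa1, against 3.38, 3.16 and 2.67 FPKM in WT, and at 23 °C 6.48, 6.43 and 6.47 FPKM in exa1, against 6.11, 5.78 and 5.73 FPKM in WT. The log2 fold change of exa1 over WT at 39 °C was 0.06 ± 0.11 (adjusted p = 0.747), and that at 23 °C was 0.14 ± 0.10 (adjusted p = 0.464), the 23 °C libraries being apart in FPKM. The response to 39 °C was -0.11 ± 0.11 in exa1 and -0.03 ± 0.11 in WT on the TMM scale, neither called, and -0.99 in exa1 and -0.94 in WT against library totals, both called. The difference of the heat responses between genotypes was called for 0 of the 9 genes, against 1.64% of all genes (0.849% higher and 0.788% lower), with 1 of 9 at an unadjusted p below 0.05, EIF4A2. DESeq2 and limma also called 0. Higher genes were 51.9% of all calls in this test with TMM and 63.1% with RLE size factors, another scaling.

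GCN2 shares 946 bases of exon, 17.0% of its own, with GUN4, which lies on the opposite strand and encodes an activator of chlorophyll synthesis. The libraries are strand-specific per the labels, and whether the counting used the strand is not given in the sources used here. GUN4 had 19.9, 20.5 and 21.7 TMM-scaled CPM in exa1 on MS, against 27.2, 24.6 and 28.2 in WT. It was lower in exa1 on MS (log2 fold change -0.36 ± 0.08, adjusted p = 3.94e-05), where GCN2 was higher, and also with NaCl (-0.89 ± 0.09) and at 39 °C (-0.98 ± 0.13). The part of shared reads in the GCN2 values was not tested.

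Tissue markers moved in the same comparisons. The 4 shoot markers, mostly RBCS1A and LHCB1.3, summed to 6593 to 6727 FPKM in exa1 on MS, against 9072 to 9396 FPKM in WT, and to 8591 to 8807 FPKM in exa1 with NaCl, against 13995 to 14450 FPKM in WT. At 39 °C they summed to 14815 to 16616 FPKM in exa1, against 19817 to 22895 FPKM in WT, and the sums overlapped between genotypes at 23 °C. Single shoot markers did not all follow the sum. At 23 °C LHCB3 had 119 to 151 FPKM in exa1, against 225 to 267 FPKM in WT. LHCB2.1 was also lower in exa1 there without overlap, while RBCS1A and LHCB1.3 overlapped. The sum of the 5 root markers was nearly that of PYK10 alone, which ran from 149 to 1133 FPKM in exa1 and from 131 to 1251 FPKM in WT, while the other 4 reached at most 28.8 FPKM. Beside the salt responses of the 9 genes, the root sum was 532 to 540 FPKM in exa1 with NaCl, against 1150 to 1181 FPKM in exa1 on MS, and 468 to 472 FPKM in WT with NaCl, against 1274 to 1286 FPKM in WT on MS. Beside the heat responses, it was 153 to 163 FPKM in exa1 at 39 °C, against 837 to 974 FPKM at 23 °C. In WT it was 137 to 151 FPKM at 39 °C, against 892 to 980 FPKM at 23 °C. Mean IRT1 went the other way in WT, at 2.95 FPKM at 39 °C, against 1.90 FPKM at 23 °C. In exa1 mean IRT1 was lower at 39 °C, as were the other root markers in both genotypes. Among shoot markers, mean LHCB3 was 494 FPKM in exa1 at 39 °C, against 138 at 23 °C, and 1052 in WT, against 244. LHCB2.1 was also higher at 39 °C in both genotypes, while RBCS1A and LHCB1.3 were lower in exa1 and overlapped in WT. Between genotypes, fewer cells of a type and less RNA per cell cannot be told apart in whole seedlings. The salt and heat treatments lasted 60 min, and whether cell numbers changed over that time was not tested. The part of all these marker shifts in the values of the 9 genes was not tested either.

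Other genes of the pathway were counted by list, beside the shares of all genes called in the same comparison. Of 8 cap-binding, eIF4A and eIF4B partners, NaCl against MS called 2 higher and 2 lower in exa1 and 2 higher and 3 lower in WT, and against library totals 2 higher and 5 lower in exa1 and 2 higher and 4 lower in WT. Of all genes, 37.1% were higher and 37.9% lower in exa1 and 36.9% and 37.6% in WT with TMM, and 29.3% and 47.8% in exa1 and 28.9% and 47.0% in WT with library totals. NCBP, an unusual cap-binding protein, was higher by 0.81 ± 0.04 in exa1 and 0.77 ± 0.04 in WT, and EIF4B1 by 0.36 ± 0.05 and 0.31 ± 0.05. At 39 °C 7 of these 8 were called higher and 0 lower in each genotype, but against library totals 4 higher and 2 lower in exa1, and 3 higher and 1 lower in WT. Of all genes, 36.3% were higher and 39.7% lower in exa1 and 36.6% and 38.6% in WT with TMM, and 13.6% and 71.7% in exa1 and 12.2% and 72.8% in WT with library totals. EIF4A-III, the helicase of the exon junction complex, was higher at 39 °C by 2.48 ± 0.08 in exa1, and against library totals by 1.59 in exa1 and 1.19 in WT.

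Of 13 tested eIF3 subunit genes, NaCl called 3 higher and 4 lower in exa1 and 1 higher and 6 lower in WT, which became 0 higher and 11 lower in exa1 and 0 higher and 12 lower in WT against library totals, where 47.8% of all genes were lower in exa1 and 47.0% in WT. There 29.3% of all genes were higher in exa1 and 28.9% in WT. The TMM shares over all genes were 37.1% higher and 37.9% lower in exa1, and 36.9% and 37.6% in WT. EIF3G2 was lower by -0.90 ± 0.11 in exa1 and -1.17 ± 0.11 in WT. At 39 °C 10 were higher and 2 lower in exa1, and 9 higher and 2 lower in WT, which became 2 higher and 7 lower in exa1 and 1 higher and 8 lower in WT against library totals, where 71.7% of all genes were lower in exa1 and 72.8% in WT. There 13.6% of all genes were higher in exa1 and 12.2% in WT. The TMM shares over all genes were 36.3% higher and 39.7% lower in exa1, and 36.6% and 38.6% in WT. EIF3C was higher under both scalings, by 1.47 ± 0.10 in exa1 and 1.46 ± 0.10 in WT with TMM. Between genotypes EIF3B-2 was lower in exa1 with NaCl by -0.37 ± 0.05 (adjusted p = 5.02e-10), and its salt response in exa1 minus that in WT was -0.38 ± 0.07 (adjusted p = 3.25e-06).

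Among the eIF2, eIF2B and eIF5 genes lies the substrate of GCN2. For eIF2B only alpha subunit genes stayed on this list, the beta, gamma, delta and epsilon genes having been dropped. The counts thus do not describe eIF2B as a whole. Of 9 genes of the list tested in the salt set, 4 were higher and 3 lower with NaCl in each genotype. Against library totals 2 were higher and 5 lower in each. With TMM 75.0% of all genes were called in exa1 and 74.4% in WT. With library totals 29.3% of all genes were higher and 47.8% lower in exa1, and 28.9% and 47.0% in WT. EIF2 ALPHA (AT5G05470), annotated as an alpha subunit, was lower by -0.90 ± 0.08 in exa1 and -0.72 ± 0.07 in WT, and lower in exa1 than in WT with NaCl by -0.32 ± 0.08 (adjusted p = 0.000952). Another alpha subunit gene on the list, AT2G40290, has no symbol in the annotation, and its values are not given here. The values of EIF2 ALPHA thus do not describe the alpha subunit genes together. EIF2 GAMMA was lower with NaCl by -0.36 ± 0.03 in exa1 and -0.45 ± 0.03 in WT. At 39 °C 6 of 8 were higher and 1 lower in each genotype, but 3 higher and 4 lower in exa1 and 2 higher and 5 lower in WT against library totals. Beside these, 36.3% of all genes were higher and 39.7% lower in exa1, and 36.6% and 38.6% in WT, with TMM. The shares were 13.6% and 71.7% in exa1, and 12.2% and 72.8% in WT, with library totals.

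Of 15 genes of the GCN1, GCN20 and TOR branch, NaCl called 7 higher and 4 lower in exa1 and 8 higher and 4 lower in WT, and against library totals 5 higher and 7 lower in exa1 and 5 higher and 6 lower in WT. With TMM the calls are near the shares over all genes, 75.0% in exa1 and 74.4% in WT. With library totals 29.3% of all genes were higher and 47.8% lower in exa1, and 28.9% and 47.0% in WT. S6K2, a kinase downstream of TOR, was higher by 1.73 ± 0.05 in exa1 and 1.69 ± 0.05 in WT. ILA, the GCN1 homologue that works with GCN2, was lower with NaCl by -0.57 ± 0.04 in WT, was higher in exa1 than in WT with NaCl by 0.18 ± 0.04 (adjusted p = 1.80e-05), and had a salt response in exa1 minus WT of 0.14 ± 0.05 (adjusted p = 0.0296). TOR itself was lower in exa1 than in WT at 23 °C by -0.34 ± 0.08 (adjusted p = 0.0117), and its heat response in exa1 minus that in WT was 0.55 ± 0.12 (adjusted p = 0.0211). At 39 °C 8 of 15 were higher and 4 lower in exa1, and 6 higher and 3 lower in WT, which became 3 higher and 10 lower in exa1 and 2 higher and 11 lower in WT against library totals. Over all genes, 36.3% were higher and 39.7% lower in exa1, and 36.6% and 38.6% in WT, with TMM. Those shares were 13.6% and 71.7% in exa1, and 12.2% and 72.8% in WT, with library totals.

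Between genotypes, the partners gave 1 higher and 0 lower in exa1 on MS, the eIF3 subunits 0 higher and 2 lower, the eIF2 group 2 higher and 1 lower, and the GCN1, GCN20 and TOR branch 3 higher and 0 lower, where 13.3% of all genes were higher and 16.0% lower. The eIF3 count on MS was 2 higher and 0 lower against library totals, where 16.9% of all genes were higher and 14.3% lower. With NaCl the same 4 lists gave 1, 3, 3 and 3 higher and 0, 1, 1 and 1 lower, against 18.6% of all genes higher and 17.2% lower. At 39 °C the partners gave 2 higher and 1 lower and the GCN1, GCN20 and TOR branch 4 higher and 1 lower, with 0 in the other 2 lists, against 7.45% of all genes higher and 8.03% lower. At 23 °C the first 3 lists gave 0, and the last gave 1 higher and 1 lower, against 3.28% of all genes higher and 4.26% lower. Of the other PAB genes 3 were tested, and 0 were called on MS or at 23 °C and 1 each with NaCl and at 39 °C.

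Profiles over the 24 libraries were compared between each member and 9220 other genes, only those with a symbol. The genes most like each member mostly differed from member to member. Pearson correlations of log2 CPM, over libraries that share conditions and sets, are given as a description. EIFISO4G2 was followed most closely, by AR192 at 0.998 and ACT7 at 0.995. PAB2 was matched by PS1 at 0.963 and PDE340 at 0.959, and EIFISO4G1 by the same pair, PDE340 at 0.955 and PS1 at 0.925. EIF4A2 was matched by PGIP1 at 0.976 and EIF4A1 by NMT1 at 0.968, while the closest named gene to GCN2, APL2, reached 0.814. Among the members, PAB2 and EIFISO4G1 correlated at 0.937 and EIF4A1 and EIF4A2 at -0.851.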

How the data were processed

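Strand-specific RNA-seq libraries were made from whole seedlings, per the labels' protocols. The authors deposited whole-number read counts per gene and FPKM, using, per the submitters' processing notes, the build TAIR10 with HISAT2 2.0.4 and HTSeq 0.6.1p1; the HTSeq strand setting is not given in the sources used here. The deposited FPKM equalled the count over exon length and the library's count total (569853 of 569853 nonzero values within 0.1%).

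Members were matched by gene identifier. Each set of 12 libraries (8 residual degrees of freedom) was fitted with edgeR 4.0.16 in R 4.3.3 (TMM, filterByExpr, robust quasi-likelihood test), Benjamini-Hochberg adjustment over all 21759 (salt) or 21196 (heat) genes, and the code was tested on simulated data. Alternatives were DESeq2 1.42.0, limma 3.58.1 on log2(FPKM + 1), RLE, library totals, no low-count filter, a replicate block, other sets of libraries and each library left out. Ratios of FPKM were compared by exact permutation in Python 3.11.15.

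All 9 members are named. Of each pathway list at most 2 called genes per comparison were to be named. These were those with the largest change, a symbol and at least 5 CPM. The 2 genes with a symbol most like each member were to be named too. Some of these genes are left out for length. Members and lists were chosen with earlier results of these data known. From the lists, loci were dropped where the reference annotation does not name the factor, a rule made stricter than first written once the annotation had been read, and library totals were added for the lists after seeing the data. Some upstream sequences are not reported here.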

Additional observations from a re-analysis of the deposited data

Results flagged for a closer look

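The salt response of GCN2 differed between genotypes in a test of the difference itself, by a log2 value of -0.501 (exa1 minus WT, adjusted p = 2.64e-08). GCN2 fell with NaCl in exa1 and rose in WT on the TMM scale, the WT value being 0.06 (adjusted p = 0.352) against library totals. The salt response of EIF4A1 also differed, by 0.0915 (adjusted p = 0.0393), a call that was lost under 4 of the 7 other settings.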

How the results depend on the processing

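With all 24 libraries in 1 fit, in place of 12, the number of the 9 members called was 3 on MS (6 as reported), 1 with NaCl (4), 5 at 39 °C (2) and 5 at 23 °C (3) for exa1 against WT, and 1 (2) for the difference of the salt responses. That difference also gave 1 with DESeq2, with limma on FPKM and with no filter on low counts. Exa1 against WT gave 1 at 39 °C and 5 at 23 °C when the 6 libraries compared were fitted alone, and 1 at 39 °C with limma on FPKM. Leaving out 1 library gave 0 to 1 at 23 °C, 1 to 5 at 39 °C and 1 to 3 for the difference of the salt responses. The cause was not tested.

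At 39 °C against 23 °C the values of 7 genes changed sign when the library total or FPKM replaced TMM. In exa1 the log2 fold changes with library totals and with FPKM were -0.48 and -0.45 for EIF4G, -0.55 and -0.55 for EIFISO4G1, -0.84 and -0.84 for EIF4A1, -0.85 and -0.81 for EIF4A2, -0.61 and -0.61 for PAB2, -0.47 and -0.48 for PAB4, and -0.70 and -0.69 for PAB8. In WT they were -0.68 and -0.64 for EIF4G, -0.56 and -0.56 for EIFISO4G1, -0.71 and -0.71 for EIF4A1, -0.62 and -0.60 for EIF4A2, -0.43 and -0.43 for PAB2, -0.51 and -0.50 for PAB4, and -0.65 and -0.64 for PAB8. By its construction this follows the median of all genes, which was -0.97 in both genotypes with library totals. EIFISO4G2 was called higher in both genotypes under each setting run, with log2 fold changes of at least 1.86 in exa1 and 1.73 in WT.

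The replicate numbers did not pair the samples: in no comparison were all 3 correlations of same-numbered libraries above 0.1. With the number as a replicate block, 46 of the 47 calls were kept and 0 were added, the lost call being PAB4 at 39 °C (adjusted p = 0.0502), which left 1 member called there.

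Of 702 values of the members under other settings, 629 kept their side of the threshold and, where called, their direction. Of 648 with a library left out, 597 did. Values called in neither fit were counted as kept even where their sign changed. By DESeq2 the eIF3 subunits gave 3 calls at 23 °C and 2 at 39 °C between genotypes, against 0 and 0 as reported, and the GCN1, GCN20 and TOR branch gave 1 call on MS, against 3, and 5 for the heat difference, against 1. The number of all genes called moved by over 1.5 times in several comparisons. It was 6385 on MS and 2760 with all 24 libraries in 1 fit, 7794 and 4052 with NaCl, 3280 and 5685 at 39 °C, and 1598 and 3924 at 23 °C. Fitting 6 libraries alone gave 1854 at 39 °C and 3216 at 23 °C. The salt difference gave 4606 and 1612 with all 24 libraries, and the heat difference 347 and 2154, with 885 by DESeq2, 161 by limma on FPKM and 85 to 1481 with a library left out. Leaving out a library gave 1741 to 4505 at 39 °C and 759 to 1319 at 23 °C. In simulated counts, log2 changes of 0.5, 1 and 2 were given to 67, 67 and 66 genes in each comparison simulated. Changes of 0.5 were recovered for 76.1% of these genes on MS, 46.3% at 23 °C and 11.9% for the heat difference. Of the calls made there, 5.98%, 6.92% and 10.4% were false. In the data 6385 genes were called on MS and 1598 at 23 °C, and the adjustment depends on how many genes change. The recovery rates therefore do not carry over to the members, and the detection of small differences of the members in the heat set was not tested.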
